A study of Arabidopsis thaliana with 12 samples.

Results

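The genes described here are 5 nuclear genes for proteins of the plastid ribosome in Arabidopsis thaliana: AT3G54210, which encodes the large-subunit protein L17, AT5G65220, which encodes the large-subunit protein L29, AT3G13120, which encodes the small-subunit protein S10, and AT4G01310 and AT1G29070, 2 further plastid ribosomal protein genes. They were chosen by locus, with earlier results of these data known. Each had 1 spot that the platform annotation assigned to it alone. They are thus 5 of 692 spots with a single gene and of 3439 spots in all. Total RNA of the toc34 mutant (6 arrays) was compared with total RNA of wild type (WT, 6 arrays), both in the ecotype Columbia 0. The labels describe toc34 as a mutant with reduced protein import through the outer envelope of the chloroplast. They name no allele, tissue, age or growth condition. Nothing in them says that replicates stand for separate plants, so p-values measure the spread over arrays, part or all of which may be technical.

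The plastid ribosome is of the bacterial type. Its RNAs and some of its proteins are encoded in the plastid genome, while the other proteins are encoded in the nucleus, made in the cytosol and carried through the translocons of the outer and inner envelope, of which TOC34 is a GTP-binding receptor. The assembled ribosome translates the plastid's own messages, among them those for core subunits of the photosystems and for the large subunit of Rubisco. The arrays measured the nuclear transcripts of these proteins, and neither the proteins nor their import.

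Summed intensity per array ran from 1988 to 3105 in toc34 and from 2641 to 3553 in WT, and 2784 to 2974 spots per array were above 0. Within a genotype, correlations across spots were higher between arrays with neighbouring replicate numbers (1 and 2, 3 and 4, 5 and 6), at 0.877 to 0.916 in toc34 and 0.957 to 0.980 in WT, than between other arrays, at 0.806 to 0.835 in toc34 and 0.920 to 0.949 in WT. Spots are not independent, so no p is attached to these. No single-gene spot was annotated to TOC34 or TOC33, and 0 of 10 marker genes of leaf, root, seed and flower had a spot of their own, so neither the genotype nor the tissue was checked against its genes. In bulk RNA, fewer cells of a type and less RNA per cell cannot be told apart.

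AT3G54210 (L17) was lower in toc34 than in WT. In Escherichia coli, L17 lies on the solvent side of the large subunit near the exit of the peptide tunnel. The deposited intensity, a linear value without a stated unit, had a lowest value of 0.128, a median of 0.240 and a highest value of 0.298 in toc34, against 0.447, 0.502 and 0.601 in WT. The genotypes did not overlap: the brightest toc34 array, replicate 4, lay below the dimmest WT array, replicate 5. Mean intensity was 0.231 ± 0.0625 in toc34 and 0.508 ± 0.0507 in WT (SD, n = 6 arrays each). After log2 transformation and quantile normalization, which gives all arrays one distribution, AT3G54210 fell 2.1-fold in toc34 (log2 difference -1.07, SE 0.18, 95% interval -1.47 to -0.67, limma adjusted p = 0.000726). The normalized values did not overlap either, so the difference had to be negative for 6 of 6 replicate numbers. It ran from -1.84 to -0.76. Its place on the array moved likewise. The spot lay at the 39.9th to 66.4th percentile of measured spots in toc34 and at the 73.5th to 78.3rd percentile in WT, a ranking that no scaling of a whole array can alter.

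AT5G65220 (L29) was higher in toc34 than in WT. In E. coli, L29 sits at the exit of the peptide tunnel beside L23, where factors that bind the nascent chain dock. Its deposited intensity had a lowest value of 0.298, a median of 0.542 and a highest value of 0.712 in toc34, against 0.212, 0.239 and 0.388 in WT. On this scale the genotypes overlapped, because toc34 replicate 1 (0.298) lay below WT replicates 3 (0.388) and 4 (0.313). Mean intensity was 0.527 ± 0.161 in toc34 and 0.269 ± 0.0686 in WT (SD, n = 6 arrays each). After normalization AT5G65220 rose 2.11-fold (log2 difference 1.08, SE 0.21, 95% interval 0.63 to 1.54, limma adjusted p = 0.00161). The normalized values no longer overlapped, but toc34 replicate 1 (-1.59) and WT replicate 3 (-1.61) nearly met. Without overlap the difference had to be positive for 6 of 6 replicate numbers. It ran from 0.57 to 1.69. By percentile the spot lay between 68.3 and 84.5 in toc34 and between 54.8 and 67.9 in WT.

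**Figure D1:**
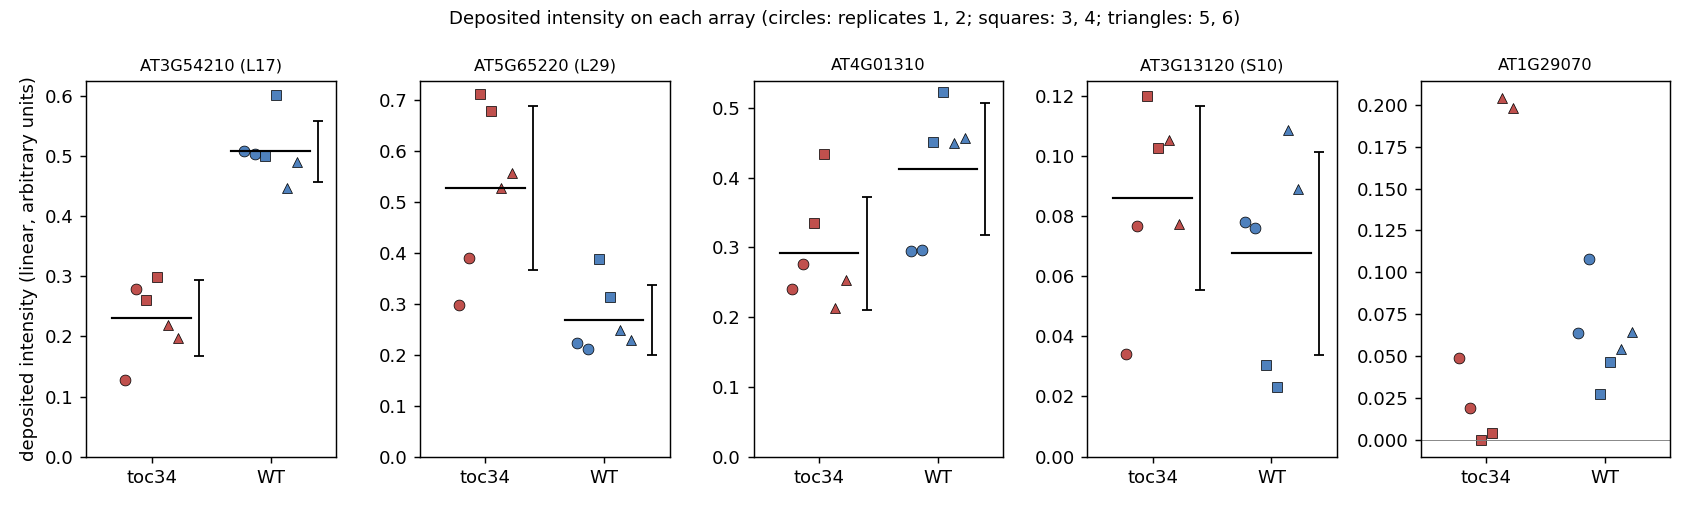
Deposited intensity (linear, arbitrary units, 1 panel and 1 scale per gene) on each of 6 toc34 and 6 WT arrays. Points are arrays, with the marker giving the pair of neighbouring replicate numbers, horizontal lines are means and bars are SD (not drawn for AT1G29070, which is listed at 0 on 1 array). The toc34 arrays of L17 sit between 0.128 and 0.298, all below the WT arrays, those of L29 reach 0.712, and AT1G29070 has 2 toc34 arrays near 0.2 and the others at or below 0.0488.

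The difference of L29 and that of L17 were also put together within each array, since a ratio of 2 spots on one array is free of that array's overall scale. The log2 ratio of L29 to L17 on the deposited scale, set relative to the WT mean, ran from 1.43 (replicate 2) to 2.44 (replicate 6) in toc34 and from -0.30 (replicate 2) to 0.58 (replicate 3) in WT. Every toc34 array thus lay above every WT array. The mean ratio was 4.38-fold higher in toc34 (log2 difference 2.13, with an SD over 6 arrays of 0.37 in toc34 and 0.32 in WT). With normalized values the difference was 2.15. The 2 genes were set against each other because one had been called higher and the other lower on these arrays, so the ratio restates those 2 differences and is given as a description, with no p.

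**Figure D2:**
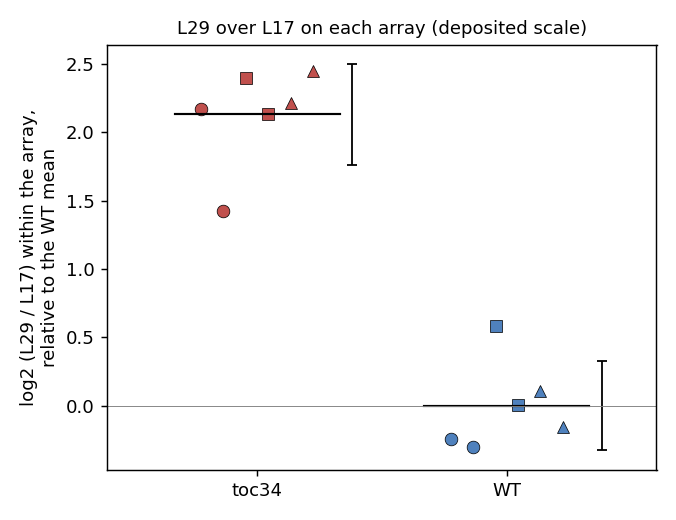
Log2 ratio of the L29 spot to the L17 spot within each array on the deposited scale, relative to the WT mean, for 6 toc34 and 6 WT arrays. Lines are means, bars are SD and markers give the pair of neighbouring numbers. The toc34 arrays lie between 1.43 and 2.44 and the WT arrays between -0.30 and 0.58.

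AT4G01310 had a smaller difference, which did not pass the threshold of 0.05 on the adjusted p. Its deposited intensity had a lowest value of 0.213, a median of 0.264 and a highest value of 0.434 in toc34, against 0.295, 0.450 and 0.523 in WT. The genotypes overlapped: WT replicates 1 (0.295) and 2 (0.296) lay among the toc34 arrays, and the other 4 WT arrays lay above all toc34 arrays. The log2 difference was -0.41 (SE 0.17, limma adjusted p = 0.0715). Its 95% interval, -0.77 to -0.05, is not adjusted for the number of spots and leaves out 0. The difference was negative for 5 of 6 replicate numbers. By neighbouring numbers it was -0.08 for 1 and 2, -0.42 for 3 and 4 and -0.73 for 5 and 6. Without WT replicate 1 (limma adjusted p = 0.0496) or WT replicate 2 (0.0446) it passed the threshold, within a range over all alternatives of 0.0446 to 0.757.

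AT3G13120 (S10) gave no call, and its lowest values lay in both genotypes. S10 is a protein of the head of the small subunit, and in E. coli it also takes part in transcription antitermination as NusE. The spot was dim, with intensities from 0.0342 over a median of 0.0898 to 0.120 in toc34 and from 0.0230 over a median of 0.0769 to 0.109 in WT. The 3 lowest of the 12 values were toc34 replicate 1 (0.0342) and WT replicates 3 (0.0306) and 4 (0.0230), and the other 9 lay between 0.0759 and 0.120. Mean intensity was 0.0860 ± 0.0305 in toc34 and 0.0675 ± 0.0337 in WT (SD, n = 6 arrays each). The log2 difference was 0.59 (SE 0.41, 95% interval -0.29 to 1.47, limma adjusted p = 0.283). It was positive for 5 of 6 replicate numbers and came to -0.40 for 1 and 2, 1.94 for 3 and 4 and 0.23 for 5 and 6. Leaving out single arrays gave 0.32 (without WT replicate 4) to 0.80 (without toc34 replicate 1). Fitted within 3 and 4 alone, with 2 arrays per genotype, it had an adjusted p of 0.0204, in a range over all alternatives of 0.0204 to 0.546.

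AT1G29070 was the most uneven of the 5 genes. In toc34 its deposited intensity was 0.204 on replicate 5 and 0.198 on replicate 6, but 0.0488, 0.0187 and 0.00393 on replicates 1, 2 and 4, and it was listed at 0 on replicate 3. In WT it ran from 0.0272 over a median of 0.0590 to 0.108. Toc34 replicates 5 and 6 thus lay above all WT arrays, and toc34 replicates 2, 3 and 4 lay below all of them. Mean intensity, with the 0 kept, was higher in toc34, at 0.0789 ± 0.0962 against 0.0607 ± 0.0270 in WT (SD, n = 6 arrays each). The value of 0 was left out of the fit as missing. Over the remaining 5 toc34 and 6 WT arrays the log2 difference was -0.16 (SE 1.0, 95% interval -2.35 to 2.04, limma adjusted p = 0.918). The interval holds changes of more than 4-fold either way, so a difference of that size is not excluded in either direction. With an offset added before the logarithm, which keeps the 0, the difference was -0.02 (limma adjusted p = 0.982). With the 0 as missing, the sign turned when toc34 replicate 4 (0.82), toc34 replicate 2 (0.12) or WT replicate 2 (0.05) was left out. Within 5 and 6 alone, with 2 neighbouring arrays per genotype, the difference was 2.29 (limma adjusted p = 0.0258), in a range over all alternatives of 0.0258 to 0.983.

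**Figure D3:**
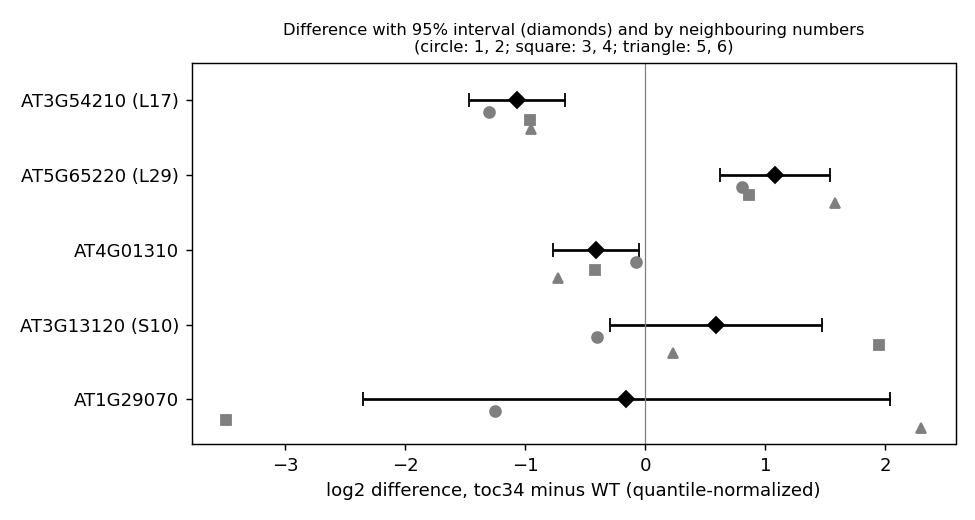
Log2 difference, toc34 minus WT, of the 5 genes after quantile normalization. Diamonds with bars are the estimates with 95% intervals, and grey markers below them are the differences within neighbouring replicate numbers (circle 1 and 2, square 3 and 4, triangle 5 and 6). The square of AT1G29070 rests on toc34 replicate 4 alone. The 3 grey markers lie on one side of 0 for L17, L29 and AT4G01310 and on both sides for S10 and AT1G29070.

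Of the 5 genes, all of which were measured often enough to be tested, 1 rose (L29) and 1 fell (L17). The share of calls over the whole table of 2768 tested spots was 36.0%, made up of 17.2% higher and 18.9% lower in toc34, and among 551 tested spots with a single gene it was 37.0%. The count of 2 among 5 genes is therefore near the background. The median log2 difference was -0.16 over the 5 genes and -0.05 over all tested spots, and the median size of the difference without its sign was 0.59 and 0.60. The values of the genotypes did not overlap for 2 of the 5 genes after normalization, as for 23.6% of all tested spots. A difference larger in size than that of L29 was seen for 23.4% of tested spots and larger than that of L17 for 23.7%. The tested spots were also ordered from dim to bright and cut into 4 equal classes. The called L17 and L29 and the uncalled AT4G01310 lay in class 3, where 43.1% of spots were called. S10 and AT1G29070, both uncalled, lay in the dimmest class, where 17.3% were. The part of brightness in these results was not tested.

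**Figure D4:**
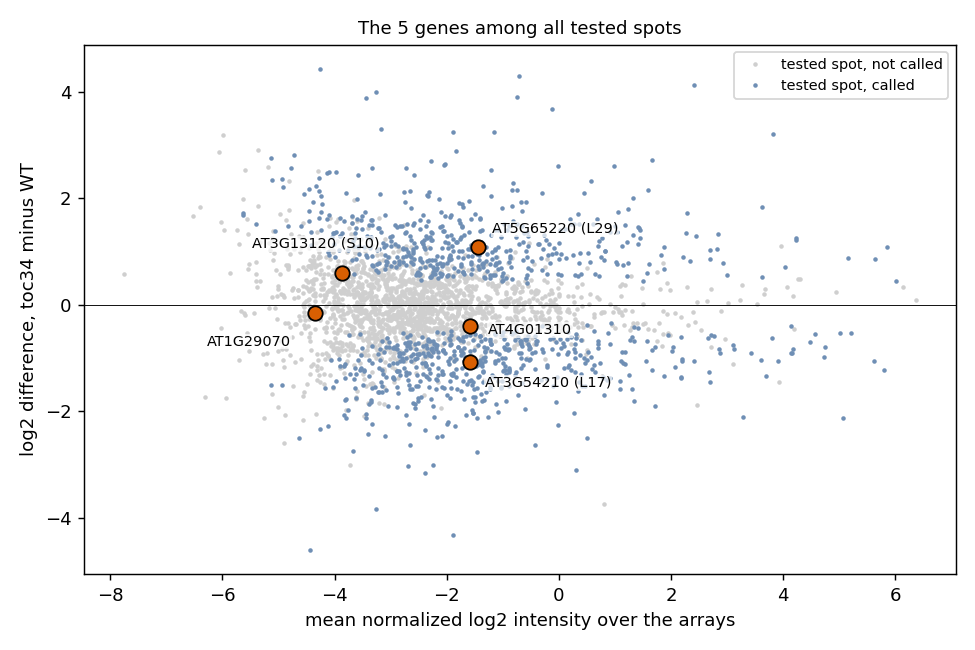
Log2 difference, toc34 minus WT, against mean normalized log2 intensity for 2768 tested spots, with called spots in blue, other spots in grey and the 5 plastid ribosomal protein genes in orange. L17 at -1.07 and L29 at 1.08 lie among many other called spots, and S10 and AT1G29070 lie at the dim end.

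The spread between arrays also differed among the 5 genes. The residual SD on the log2 scale was 0.24 for AT4G01310, 0.29 for L17 and 0.35 for L29, below the median of 0.41 for spots of the same brightness class. It was 0.76 for S10, near the median of 0.86 for the dimmest class, and 1.85 for AT1G29070, a spread that 2.06% of tested spots exceeded. Normalized values varied more in toc34 than in WT for L17 (SD 0.38 and 0.13), L29 (0.44 and 0.22) and AT1G29070 (2.67 over 5 arrays and 0.67), and less for AT4G01310 (0.16 and 0.30) and S10 (0.57 and 0.90), differences that were not tested.

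Toc34 replicate 1 was the lowest toc34 array for 3 of these genes after normalization: L17 (-2.81, the others from -2.22 to -1.69), L29 (-1.59, the others from -1.18 to -0.41) and S10 (-4.66, the others from -3.56 to -3.02). Its neighbour, replicate 2, was the highest toc34 array for L17. For AT4G01310 the lowest toc34 array was replicate 3 (-1.93). For AT1G29070, replicate 1 (-4.15) lay above replicates 2 (-5.56) and 4 (-8.38). How often replicate 1 was the lowest toc34 array over all tested spots was not counted. The gap between replicates 1 and 2 was 1.11 for L17 and 1.10 for S10, where the median gap of tested spots between these 2 arrays was 0.33 and 11.9% and 12.1% of spots had a wider one. Without toc34 replicate 1, L17 fell by 0.94 and L29 rose by 1.22 on the log2 scale, and the difference of S10 was 0.80 with an adjusted p that did not pass. Leaving out any single array kept the calls of L17 (limma adjusted p from 0.000475 to 0.00235) and L29 (0.000414 to 0.00476). Each of these fits kept the neighbour of the array left out, so they test little of the dependence on a neighbouring pair.

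Both calls depended on how neighbouring arrays were treated. With neighbouring numbers as a random block both calls held (limma adjusted p = 0.0195 for L17 and 0.00780 for L29). When each neighbouring pair was averaged, leaving 3 values per genotype, the call of L17 held (0.0280) and that of L29 ended (0.0667). When the averaged pairs were also blocked by number, both ended (0.0688 and 0.0823). In fits of 2 arrays per genotype, both calls ended within numbers 1 and 2 (0.0979 and 0.0669) and held within 3 and 4 (0.0362 and 0.0397) and within 5 and 6 (0.0441 and 0.0259). Such a fit measures only the spread between neighbouring arrays, which were more alike than other arrays. A call that held there is therefore not a replication. Over all alternatives the adjusted p ran from 0.000342 to 0.0979 for L17 and from 0.000414 to 0.0979 for L29.

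Scaling between arrays changed neither direction. On the deposited scale the median log2 difference of all tested spots was -0.20, with 335 spots higher and 590 lower (36.2% higher), against 475 and 522 (47.6% higher) after quantile normalization. L17 had a difference of -1.19 and L29 of 0.94 on the deposited scale, or -0.99 and 1.14 relative to that median.

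**Figure D5:**
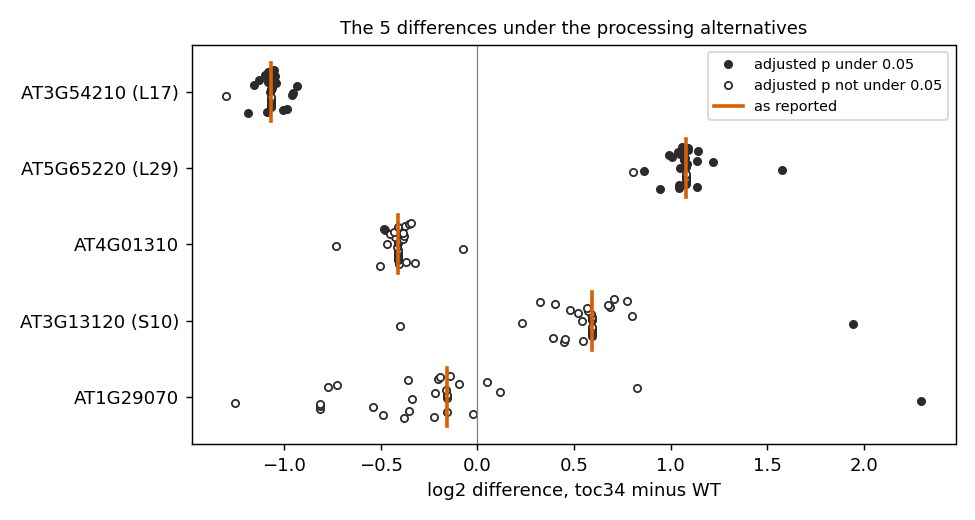
Log2 difference, toc34 minus WT, of the 5 genes under each processing alternative, with filled points where the limma adjusted p was under 0.05, open points where it was not, and an orange bar at the reported value. L17 stays between -1.30 and -0.94 and L29 between 0.80 and 1.58, while AT1G29070 runs from -1.25 to 2.29.

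The spots whose pattern over the 12 arrays was most like that of each gene were taken from 474 other single-gene spots measured on every array, by Pearson's r of normalized log2 values. The r is a description: it holds the shift between genotypes and the likeness of neighbouring arrays. For L17 they were CRR21 (r = 0.937), a pentatricopeptide repeat protein of plastid RNA editing, AT2G35390 (0.933) and AT1G16080 (0.927), and all 3 fell in toc34, CRR21 by 1.07 on the log2 scale. For L29 they were AT1G50510 (0.965), AT5G48830 (0.947) and AT5G34870 (0.937), and all 3 rose, AT1G50510 by 1.31. Because L17 and L29 were themselves split by genotype, picking spots by so high an r nearly fixed the direction of their shift. Taken as deviations from the genotype means, which removes that shift, r was 0.564 to 0.637 for the first 3 and 0.749 to 0.854 for the second 3. These spots were picked by r over the same 12 arrays, which favours high values here too, and the likeness of neighbouring arrays remains.

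For AT4G01310 the most alike were AT4G27510 (0.840), AT5G14910 (0.829) and AT1G01080 (0.776). For S10 they were AT3G55070 (0.853), AT3G03890 (0.792) and AT3G02450 (0.788). No gene of the plastid ribosomal protein list could appear among the 12 genes so named. The 5 genes were set aside, and AT1G64510, the only other one with a single-gene spot, was not measured on every array. AT1G29070 was left out of this comparison because of its value of 0. Among the 5 genes themselves, the deviations of the 4 measured on every array correlated at -0.02 for AT4G01310 and S10 up to 0.55 for L17 and S10, with 0.33 for L17 and L29 (12 arrays, description only).

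Few other genes of plastid translation were on spots of their own. Of the 36 other nuclear genes on a list of 41 plastid ribosomal protein genes, 1 had a single-gene spot, AT1G64510. It was above 0 on 1 toc34 array (0.00651) and 1 WT array (0.00444), was listed at 0 on the other 5 arrays of each genotype and was not tested. None of 14 genes for plastid translation factors and ribosome assembly had a single-gene spot, and 3 spots held such genes together with others. A spot of 2 genes, 1 of them on that list, had an intensity of 0.932 ± 0.113 in toc34 and 0.785 ± 0.111 in WT (SD, n = 6 arrays each), with a log2 difference of 0.42 (SE 0.23, limma adjusted p = 0.171). A spot of 3 genes, 2 of them on the list, had 0.178 ± 0.0822 in toc34 and 0.156 ± 0.0350 in WT, with a log2 difference of 0.21 (limma adjusted p = 0.635). The third spot, whose 2 genes were both on the list, was above 0 on 2 arrays of each genotype and was not tested. Of these other spots, 0 of the 2 tested passed the threshold. Further ribosomal protein genes were sought only by the words "ribosomal protein" in the symbols and synonyms of the gene table. The 44 genes found so, off the plastid list, had no single-gene spot. Ribosomal protein genes named otherwise were not sought, so cytosolic and mitochondrial ribosomal proteins were not analysed here.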

How the data were processed

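The deposited table gives 1 intensity per spot and array on a linear scale, as judged from its values. Its background correction, scaling, labelling and software are not given in the sources used here. Genotype and replicate number came from the sample titles. Genes were named from the platform annotation through identifiers in the RefSeq table of TAIR10.1, which held 690 of the 692 single-gene loci. Coordinates are not printed because no genome build was stated, and no sequences were used here.

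Values of 0 were taken as missing, log2 values were quantile-normalized, and spots with at least 4 values in each genotype (2768 of 3439) were tested in R 4.3.3 with limma 3.58.1 (lmFit, eBayes), without covariates and two-sided. P-values were adjusted by Benjamini-Hochberg across every tested spot, with a threshold of 0.05. The procedure was tested on simulated data, with 50 changed spots per size among 2768. It recovered 10% of changes of 0.585 on the log2 scale, 44% of 1, 82% of 2 and 96% of 3. The simulated arrays were independent, and fewer spots changed than were called here, so these shares do not carry over directly to the 5 genes. The random block used duplicateCorrelation (statmod 1.5.0), with a consensus correlation of 0.535. Same-numbered arrays of the 2 genotypes deviated together (r = 0.134 to 0.274 over 2337 spots, each toc34 array correlating best with the WT array of its own number), so the replicate number was also fitted as a block, as an alternative to the main fit, which has none. This pairing comes from the values, not the labels.

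Named genes were the 5 members, the 3 spots most like each, and list genes on spots of their own. Members and lists were chosen with earlier results of these data known. The number of arrays limits the precision.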

Additional observations from a re-analysis of the deposited data

Results flagged for a closer look

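The values of each gene in each genotype, where all 6 arrays were measured, were searched for an array whose gap to the nearest other array, as a share of the group's range, exceeded Dixon's 95% critical value. For independent values chance gives about 1 in 20 in each group, so 1 among 9 groups can arise by chance. Neighbouring arrays were alike, so this rate may not hold here. Of 9 groups searched, 1 exceeded the critical value. It was AT3G13120 (S10) in toc34, with a ratio of 0.670, where replicate 1 lay at a normalized log2 value of -4.66 and the others between -3.56 and -3.02. Its deposited intensity there was 0.0342, and without this array the difference from WT was 0.80, against 0.59 with it and 0.32 when WT replicate 4 was left out instead.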

How the results depend on the processing

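The 5 genes gave 156 differences under the alternatives. In 141 neither the sign nor the call changed, in 7 a call ended, in 3 one was added and in 5 the sign turned, 1 of them with a call (AT1G29070 within 5 and 6). The sign changes were those of AT3G13120 within numbers 1 and 2 (-0.40) and of AT1G29070 within 5 and 6 (2.29), without toc34 replicate 2 (0.12) or 4 (0.82) and without WT replicate 2 (0.05), where leaving out 1 array gave -0.77 to 0.82. The 2 calls among the 5 genes became 1 when neighbouring pairs were averaged and 0 when these averages had a replicate block, or within numbers 1 and 2, and stayed at 2 or 3 otherwise. The 997 calls over all spots became 381 with pairs averaged, 625 with the random block, 549 within numbers 5 and 6, 620 at a threshold of 0.01 and 203 with averages and the replicate block. That last limma fit gave 0 calls when run over 2905 spots, with 898 spots at an unadjusted p under 0.05, a setting chosen after the data were seen. AT1G29070 could not be fitted within 3 and 4 or where 6 values per genotype were asked, and neither it nor AT3G13120 reached the 25th percentile of level. Averaging and single pairs leave fewer values. Leaving out 1 array gave 863 to 996 calls. The replicate block alone gave 1010 calls, 914 of them among the 997, and changed no call of the 5 genes. Both AT3G13120 and AT1G29070 lay among the dimmest spots tested.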
